A study of Mus musculus with 8 samples.

Results

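The D-type cyclins and the proteins that carry their signal through the G1 phase of the cell cycle were followed across embryonic stem cells (ESCs) and primordial germ cell-like cells (PGCLCs) with and without the transcription factor gene Tfap2c. The set holds 10 of the 18193 genes that had at least 1 probe set naming only that gene: the cyclins Ccnd1, Ccnd2, Ccnd3 and Ccne1, the kinases Cdk4 and Cdk6, the pocket proteins Rb1 and Rbl1, and the inhibitors Cdkn1b and Cdkn2c. All their probe sets that name no other gene were taken, 30 in all, from 1 for Cdkn2c to 7 for Ccnd2. All 10 genes were measured and none was filtered out.

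RNA was measured on 8 mouse expression arrays, 2 in each of 4 groups: ESCs and PGCLCs, each with and without Tfap2c. Control cells were ESC lines with floxed Tfap2c alleles (Tfap2c flox/flox), and Tfap2c−/− cells were made from them by transient transfection with a plasmid expressing Cre. All groups carried the Blimp1mVenus transgene, a fluorescent reporter driven by regulatory sequence of Prdm1. PGCLCs were grown from ESCs through an epiblast-like state with BMP4, BMP8b, SCF, LIF and EGF and sorted for this reporter, so that their Prdm1 activity was selected and the ESCs were not sorted. For the ESCs the methods list a medium with PD0325901, CHIR99021 and LIF. Differences between ESCs and PGCLCs therefore cannot be told apart from those of medium and sorting. The study used a pair of ESC lines, and the labels number the arrays 1 and 2 without tying a number to a line. The p-values therefore measure only the spread between these arrays.

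Before the members, the targeted gene and the identity of the cells were checked. Tfap2c, on the probe set with the highest level, read 7.88 and 9.14 in control ESCs and 7.28 and 6.47 in Tfap2c−/− ESCs on the log2 scale. In PGCLCs it read 9.84 and 10.29 in controls and 8.52 and 8.85 in Tfap2c−/− cells. Both Tfap2c−/− arrays of each cell type lay below both controls of that type, but Tfap2c−/− PGCLCs were within the range of control ESCs. Where these probes lie relative to the deleted part is not given in the sources used here. For the deletion the study cites genotyping by PCR and TFAP2C staining of the ESC lines. The legend of its RT-PCR in PGCLCs states that Tfap2c−/− cells gave no signal, without naming the gene. All 8 listed markers of ESCs and naive pluripotency, Pou5f1 and Sox2 among them, were above log2 5 in every group. The summed level of 7 measured germ cell markers, on the log2 scale, was 10.4 to 10.9 in ESCs, 12.40 and 12.60 in PGCLCs of the control and 11.64 and 11.68 in those without Tfap2c. These markers include the deleted gene Tfap2c and Prdm1, whose reporter was sorted, so the sum is partly set by the design. Values were summed on the linear scale, and in Tfap2c−/− PGCLCs Ifitm3 was the brightest (mean 10.93). There Kit (6.89) was below control (8.00) and Tfap2c−/− ESCs (7.90). Dppa3 (6.34) lay between Tfap2c−/− (5.59) and control ESCs (6.57). Prdm1, Prdm14, Tfap2c, Dnd1 and Ifitm3 had higher means there than in ESCs of either genotype. None of 5 endoderm and 7 fibroblast markers had a group mean above 5, although Col1a2 read 5.69 on Tfap2c−/− PGCLC array 1. Col1a1 read 5.27 on that array and 5.06 on control PGCLC array 1. Of 5 neural markers 2 had such a mean in ESCs of either genotype and in control PGCLCs, and 3 in Tfap2c−/− PGCLCs. Of 5 measured mesoderm and primitive streak markers 1, Eomes, was above 5 in every group. Of 4 trophoblast markers 1, Cdx2, was so in control PGCLCs only. Control PGCLC array 2 was the highest in 2 measures. Its Gapdh 3′ probe set exceeded the 5′ one by 0.949 against 0.305 to 0.523 on the other arrays. Its added poly-A transcripts averaged 7.91, against 7.44 and 6.72 in Tfap2c−/− PGCLCs and 5.42 to 5.91 on the rest.

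In G1 a cell either commits to another round of DNA replication or leaves the cycle. D-type cyclins are made in response to growth signals and activate CDK4 and CDK6, which phosphorylate the retinoblastoma protein RB1 and its relatives. Phosphorylated pocket proteins release E2F factors, which switch on cyclin E and the genes of DNA synthesis. CDKN1B (p27) restrains cyclin-kinase complexes in general, and CDKN2C (p18) binds CDK4 and CDK6. Mouse ESCs cycle fast with a short G1, and germ cell precursors later arrest in G1 (male) or enter meiosis (female).

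Sequence could be shown for the regions just before the start sites of 7 of the 10 members, as the 250 upstream bases in RefSeq (GRCm38.p6). No entry was matched for Ccnd1, Ccnd2 or Rb1. Ccnd3 and Cdkn2c each had a further start site. The Ccnd3 window printed is the downstream one and, like that of Cdk6, lies inside the span of its gene. Printed are Ccnd3 and Rbl1, which changed between control ESCs and control PGCLCs, Cdk6, whose locus the study tested for TFAP2C binding, and Ccne1, which was level on all arrays. Capitals mark the AP-2 motif GCCNNNGGC and the E2F motifs TTTCGCGC, TTTGGCGC, TTTCCCGC and TTTGCCGC, searched on both strands.

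Ccnd3, chr17:47593217-47593466, plus strand: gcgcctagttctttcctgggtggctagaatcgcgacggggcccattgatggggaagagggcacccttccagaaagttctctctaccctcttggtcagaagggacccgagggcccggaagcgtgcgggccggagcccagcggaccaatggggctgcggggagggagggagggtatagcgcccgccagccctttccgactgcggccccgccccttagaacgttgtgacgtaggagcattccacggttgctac

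Rbl1, chr2:157204535-157204784, minus strand: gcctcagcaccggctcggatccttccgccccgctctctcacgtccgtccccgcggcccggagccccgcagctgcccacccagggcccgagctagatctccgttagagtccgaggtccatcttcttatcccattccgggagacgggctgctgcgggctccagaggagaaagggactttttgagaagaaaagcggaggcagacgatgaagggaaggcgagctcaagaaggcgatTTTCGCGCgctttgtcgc

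Cdk6, chr5:3343643-3343892, plus strand: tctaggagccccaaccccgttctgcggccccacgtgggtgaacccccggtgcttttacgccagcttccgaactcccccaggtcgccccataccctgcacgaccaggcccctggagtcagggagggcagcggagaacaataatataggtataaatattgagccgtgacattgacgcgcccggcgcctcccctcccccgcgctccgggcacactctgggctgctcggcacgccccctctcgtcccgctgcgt

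Ccne1, chr7:38107491-38107740, minus strand: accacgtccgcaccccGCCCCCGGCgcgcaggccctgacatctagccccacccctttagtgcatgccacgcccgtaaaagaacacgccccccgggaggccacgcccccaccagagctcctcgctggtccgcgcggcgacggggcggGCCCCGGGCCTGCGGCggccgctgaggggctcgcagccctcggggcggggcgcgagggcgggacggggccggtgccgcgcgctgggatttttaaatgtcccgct

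The Rbl1 window held TTTCGCGC 18 bases before the start, a motif class found in 1.86% of 32841 windows of this length. The AP-2 letters, the pattern bound by TFAP2C, occurred in 13.7% of windows. Among the members they were found 3 times in Ccne1, 234, 104 and 97 bases before the start with the last 2 overlapping, and once in Cdkn1b as GCCCGGGGC. The windows of Cdk6, Cdk4, Cdkn2c, Ccnd3 and Rbl1 held none. These matches describe letters in a window and no binding. The study's binding assay at Cdk6 used the following designed primers, which the study places in the third intron. In PGCLCs that carried Tfap2c it reported TFAP2C enriched at Cdk6 over an IgG control. From this it implicated Cdk6 as a direct target. The gene spans 3341004 to 3531008 of chromosome 5 in RefSeq, and neither primer is part of the window printed above.

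Cdk6 ChIP forward primer: ttctttccagcagtgtttgc

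Cdk6 ChIP reverse primer: gcagcagaaggtttctcacc

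**Figure D1:**
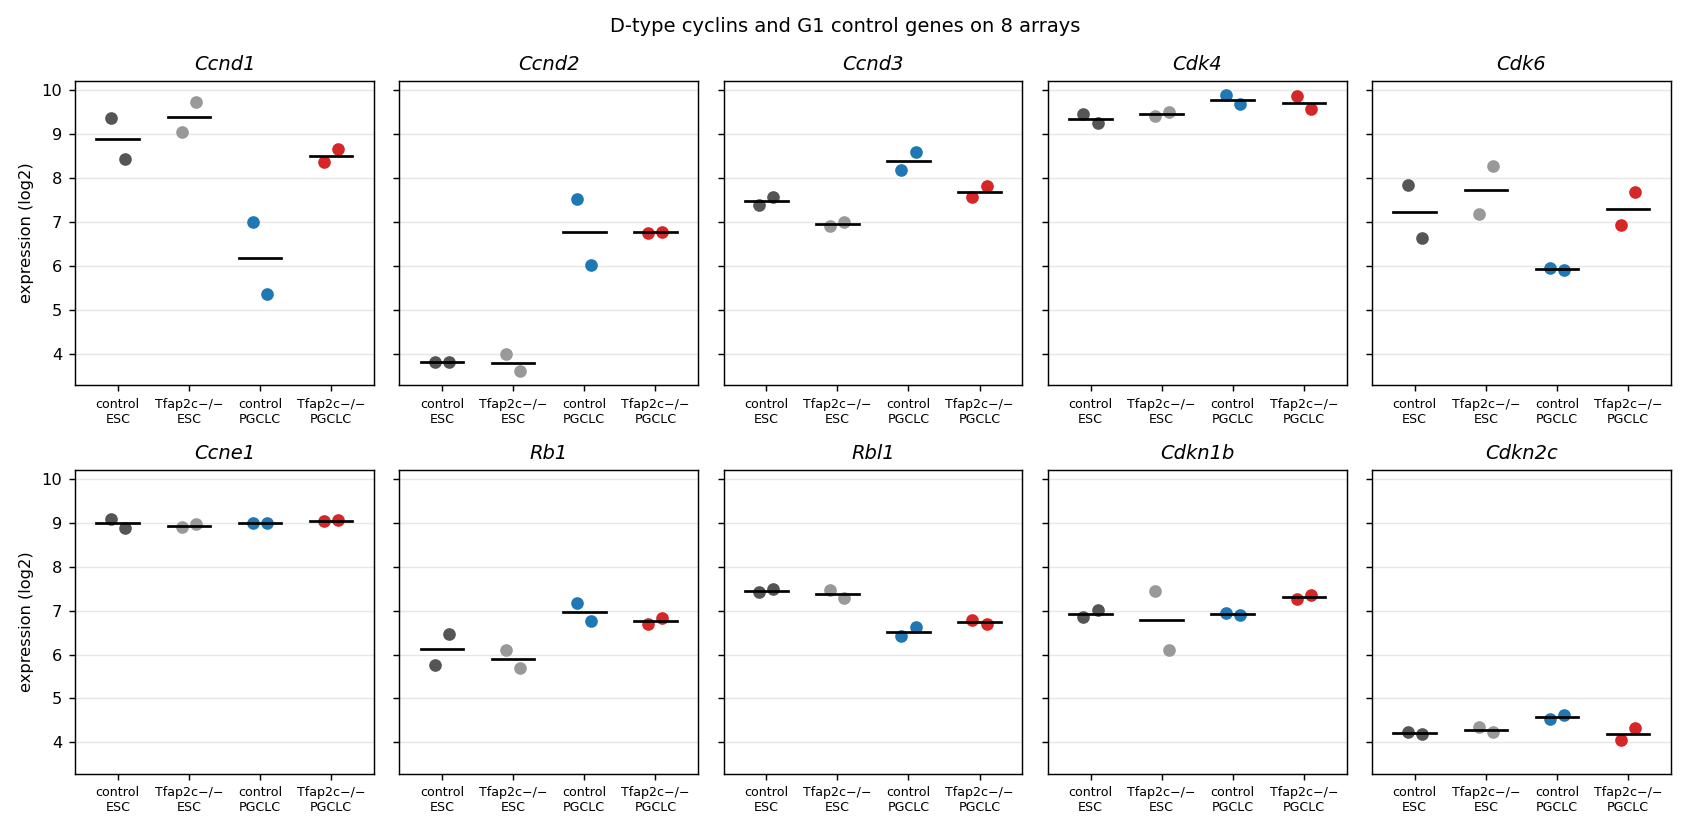
Expression on the log2 scale (vertical axis) of the 10 genes on the probe set with the highest mean, by group, with 1 point for each array and a bar at the group mean (n = 2). Ccnd1 sat between 5.36 and 7.0 in control PGCLCs and between 8.37 and 9.73 on the other arrays, and Ccnd2 was under 4 in all ESCs and above 6 in all PGCLCs; panels share an axis for layout, and levels of different genes cannot be compared.

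Between control ESCs and control PGCLCs the D-type cyclins went different ways. Ccnd2 and Ccnd3 rose, Ccnd1 fell, and the pocket protein gene Rbl1 fell with it. These were the 4 of 10 members that passed limma at an adjusted p under 0.05, beside 8.37% of all 18193 genes. The 2 that rose stand beside 4.64% of genes and the 2 that fell beside 3.72%. By a difference of group means above 1.5 there were 2, Ccnd1 and Ccnd2, beside 3.49%. The arrays of these groups did not overlap for 8 members, where 53.8% of all genes did not. Over the members the median absolute difference was 0.88 on the log2 scale, and over all genes it was 0.22. Only 8512 of the 18193 genes had a mean over the arrays above log2 5, under which differences are compressed. Most members lay above it, so these medians compare genes of unlike level. In bulk samples, fewer cells of a type and less RNA per cell cannot be told apart.

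Ccnd2, the cyclin induced by several growth factor signals in many lineages, had the largest difference of the set. It read 3.81 and 3.82 in control ESCs against 7.52 and 6.03 in control PGCLCs. Every PGCLC array was above every ESC array, and the control PGCLCs were 1.5 apart from each other. The mean rose by 2.96 (SE 0.42; adjusted p = 0.0078, limma), or 7.79-fold. In ESCs the signal was under log2 5, where differences are compressed. All 7 probe sets were higher in control PGCLCs, by 0.42 to 3.06, and 5 passed in the fit over all probe sets.

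Ccnd1, the cyclin most often driven by mitogens and amplified in tumours, moved the opposite way. It read 9.37 and 8.43 in control ESCs and 7.0 and 5.36 in control PGCLCs. Both PGCLC arrays were lower than both ESC arrays, with the lowest value on control PGCLC array 2. The mean fell by 2.72 (SE 0.53; adjusted p = 0.0234, limma), which is 6.60-fold lower. Its 3 probe sets fell by 2.50 to 3.09 and all passed.

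Ccnd3, which is prominent in differentiating and lymphoid cells, rose by less. It read 7.39 and 7.58 in control ESCs and 8.18 and 8.60 in control PGCLCs. The groups did not overlap, and the difference was 0.91 (SE 0.19; adjusted p = 0.0276, limma), or 1.88-fold. Its other 2 probe sets, both under log2 5, differed by 0.11 and 0.36 and did not pass.

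The kinases did not pass. Cdk6 read 7.84 and 6.63 in control ESCs against 5.94 and 5.89 in control PGCLCs, a difference of −1.32 (SE 0.48; adjusted p = 0.143, limma). The PGCLC arrays lay below both ESC arrays, but the ESC arrays were 1.21 apart. Cdk4, the other kinase partner, differed by 0.43 (adjusted p = 0.121, limma), with 9.47 and 9.25 in control ESCs and 9.90 and 9.68 in control PGCLCs.

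Downstream of the kinases, the pocket protein genes separated. Rbl1 (p107), which binds the repressive E2F factors and whose promoter window holds the E2F motif printed above, read 7.42 and 7.49 in control ESCs and 6.42 and 6.62 in control PGCLCs. It was lower in both PGCLC arrays, and fell by 0.93 (SE 0.16; adjusted p = 0.0141, limma). One of its 4 probe sets passed, and all 4 were lower, by 0.12 to 0.93. Rb1, the founding retinoblastoma gene, read 5.76 and 6.47 against 7.18 and 6.77. All control PGCLC values were higher, but the difference of 0.86 (SE 0.28) did not pass (adjusted p = 0.108, limma).

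Ccne1, the cyclin partner of CDK2 at the start of S phase, was level. It read 9.10 and 8.89 in control ESCs and 8.99 and 8.99 in control PGCLCs, and the 95% interval of the difference ran from −0.27 to 0.27. Of the inhibitors, Cdkn1b differed by −0.01 with a wide interval, from −0.89 to 0.86. Its dimmer second probe set differed by −1.10 (adjusted p = 0.0917, limma over all probe sets), so its probe sets disagree. Cdkn2c, with 1 probe set, read 4.24 and 4.18 in control ESCs and 4.54 and 4.63 in control PGCLCs, a difference of 0.38 (adjusted p = 0.245, limma).

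These calls rest on 2 arrays a group. Without either control ESC array no member passed, although Ccnd2 stayed at 2.96 and 2.97 (adjusted p = 0.0606 and 0.0502, limma). Ccnd1 was then at −2.25 and −3.19, Ccnd3 at 0.81 and 1.003, and Rbl1 at −0.96 and −0.89 (adjusted p from 0.0561 to 0.148, limma). Without control PGCLC array 2, the array set apart by the Gapdh and poly-A values above, Ccnd2 alone passed, with Ccnd1 at −1.90 (adjusted p = 0.0870), Ccnd3 at 0.70 (adjusted p = 0.160) and Rbl1 at −1.03 (adjusted p = 0.0588, limma). Without control PGCLC array 1 the 3 cyclins passed and Rbl1, at −0.83, did not (adjusted p = 0.0779, limma).

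**Figure D2:**
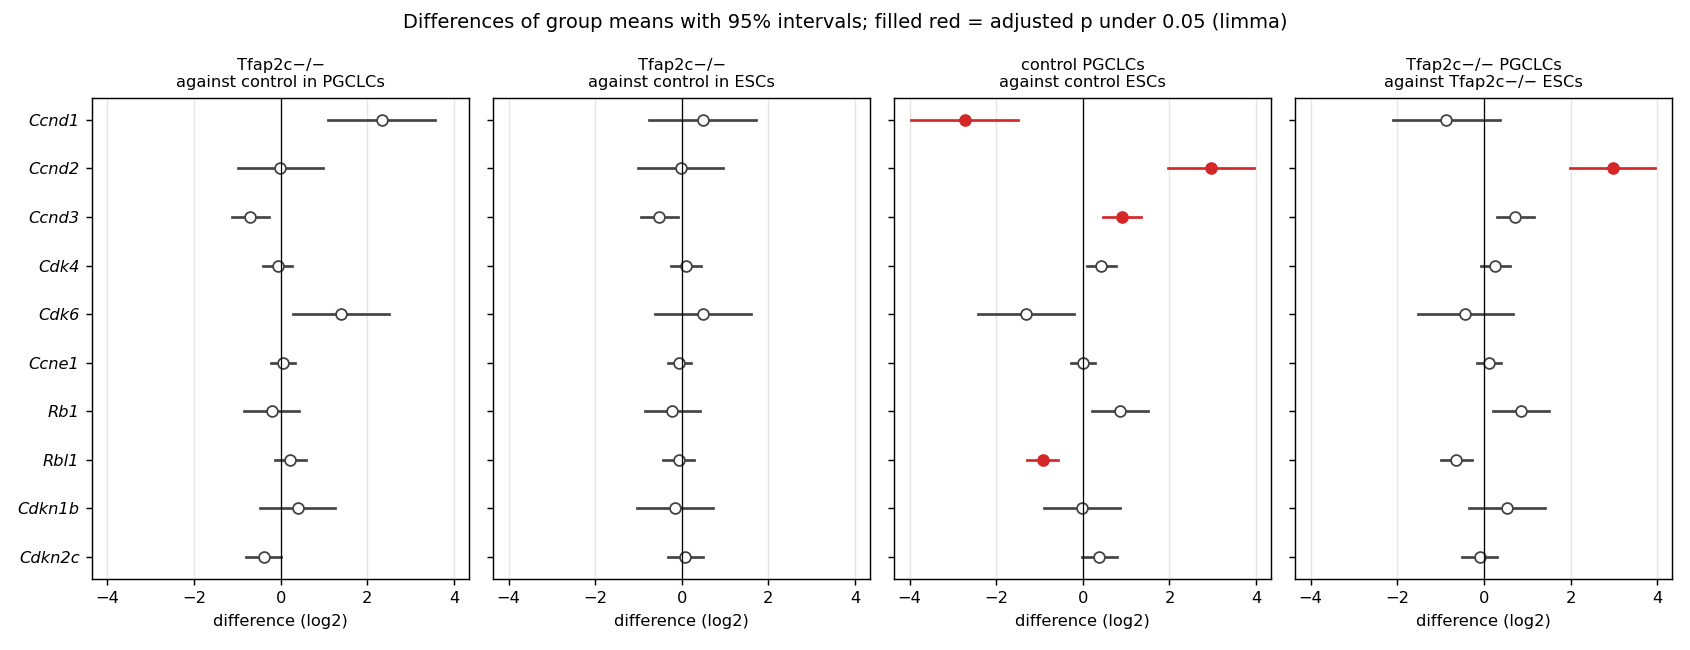
Difference of group means on the log2 scale (horizontal axis) for each member in 4 comparisons, with 95% intervals from limma; filled red points passed at an adjusted p under 0.05. Ccnd1, Ccnd2, Ccnd3 and Rbl1 passed between control PGCLCs and control ESCs, Ccnd2 alone between Tfap2c−/− PGCLCs and Tfap2c−/− ESCs, and no member between genotypes.

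The next comparison asked which members depend on Tfap2c in PGCLCs. None of the 10 passed limma, beside 3.09% of all genes. Ccnd1 and Cdk6 had the largest differences, both higher without Tfap2c, and Ccnd3 had the next, lower without it. At an unadjusted p under 0.05 there were 3 members, Ccnd1, Ccnd3 and Cdk6, where 15.7% of all genes reached that level. The groups did not overlap for 7 members, and for 47.5% of genes. The study placed Ccnd1 and Cdk6 in a category of deregulated cell cycle genes that it chose on these same arrays, so their direction here is not independent evidence. Apart from the arrays, it reported Ccnd1 higher by quantitative RT-PCR of Tfap2c−/− PGCLCs. It also reported CCND1 higher after TFAP2C knockdown in the human seminoma-like line TCam-2. No such expression measurement was listed for Cdk6, at which the study reported TFAP2C binding in PGCLCs.

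Control PGCLCs read 7.0 and 5.36 for Ccnd1, and Tfap2c−/− PGCLCs read 8.37 and 8.66. Both Tfap2c−/− arrays were higher than both controls, and the controls differed from each other by 1.64. The difference was 2.33 (SE 0.53; 95% interval 1.1 to 3.57), or 5.04-fold, with an adjusted p of 0.0639 (limma). By size alone it ranked 105 of 18193 genes. On the probe sets with the highest mean it was the 1 member past a difference of group means above 1.5, which 1.95% of all genes passed. The study used this size on single probe sets, and a second Cdk6 probe set was also just past it, at 1.501. The other 2 Ccnd1 probe sets differed by 2.15 and 2.19. One array decided the call: without control PGCLC array 1 the difference was 3.15 and passed (adjusted p = 0.0232), and without control PGCLC array 2 it was 1.52 and did not (adjusted p = 0.283, limma). It also passed when dim genes were left out of the test (adjusted p = 0.0450, limma).

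For Cdk6, a kinase that can stand in for Cdk4 in many cell types, control PGCLCs read 5.94 and 5.89 against 6.94 and 7.68 without Tfap2c. Both Tfap2c−/− arrays were higher, and they lay 0.738 apart. The difference was 1.39 (SE 0.48; adjusted p = 0.200, limma), or 2.62-fold. A second probe set gave 1.501 and the third, which was under log2 5 on all arrays, gave 0.29.

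Ccnd3 went the other way. It read 8.18 and 8.60 in control PGCLCs against 7.56 and 7.82 in Tfap2c−/− PGCLCs, so that both Tfap2c−/− arrays were lower. The difference was −0.70 (SE 0.19; adjusted p = 0.104, limma). Ccnd2 showed no shift of its mean: it read 7.52 and 6.03 in controls and 6.75 and 6.77 in Tfap2c−/− cells, which lay between the controls. Its 95% interval, from −0.997 to 0.973, leaves room for a difference either way.

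For the remaining members the differences were small. Cdk4 (−0.07; 95% interval −0.41 to 0.27) and Ccne1 (0.06; −0.21 to 0.33) had the narrowest intervals. Rb1 differed by −0.21 and Rbl1 by 0.22. The probe sets of Rbl1 disagreed, with −0.47 on its second brightest and −0.06 when all were averaged. Among the inhibitors, Cdkn1b read 6.94 and 6.90 in controls against 7.27 and 7.36 without Tfap2c, a difference of 0.39 (adjusted p = 0.713). Cdkn2c read 4.54 and 4.63 against 4.06 and 4.33, a difference of −0.39 (adjusted p = 0.338, limma).

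Other measures moved with the genotype in PGCLCs. The germ cell marker sum, which includes Tfap2c and Prdm1, was lower in both Tfap2c−/− arrays, as given above. Ifitm3 alone among its genes had a higher mean without Tfap2c, at 10.93 against 10.57. The sum of the ESC and naive pluripotency markers was higher, at 13.13 and 13.39 against 12.99 and 12.91. The fibroblast sum, 6.67 and 5.84 in controls and 7.01 and 6.04 in Tfap2c−/− cells, was higher on the arrays numbered 1. The summed epiblast markers (4 genes) were higher without Tfap2c, at 9.90 and 9.82 against 8.67 and 8.51. Dnmt3b, the brightest of them, had a mean of 9.40 against 8.08 in controls. Pou3f1 and Otx2 were also higher, and Fgf5, under log2 5, was not (3.73 against 3.94). This sum did not set PGCLCs apart from ESCs, where it was 9.06 to 9.93. The part of these measures in the Ccnd1 and Cdk6 differences was not tested.

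**Figure D3:**
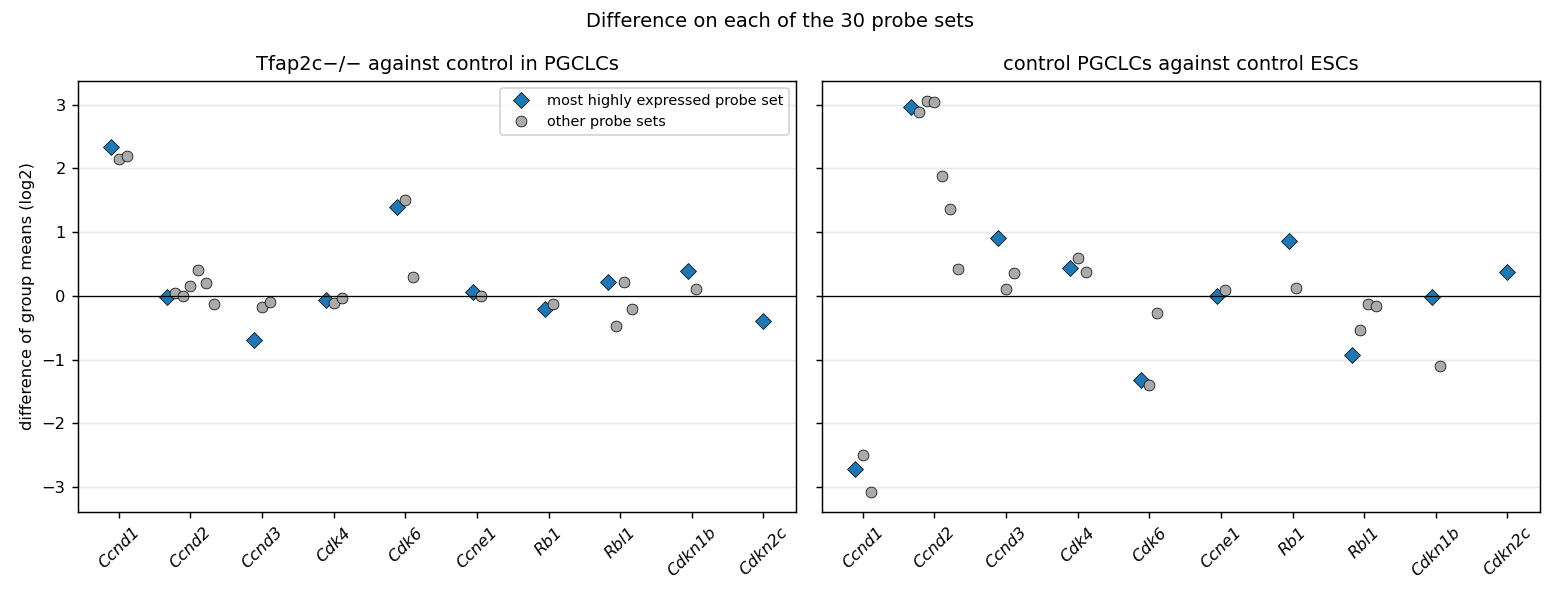
Difference of group means on the log2 scale (vertical axis) on each of the 30 probe sets, by gene, for Tfap2c−/− against control PGCLCs (left) and control PGCLCs against control ESCs (right); blue diamonds are the probe sets with the highest mean. The 3 Ccnd1 probe sets lie within 2.15 to 2.33 on the left, whereas those of Cdk6 run from 0.29 to 1.5 and the 7 of Ccnd2 on the right from 0.42 to 3.06.

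The same deletion was then compared in ESCs. No member and no gene passed limma (0%), and 455 genes (2.50%) had an unadjusted p under 0.05. Ccnd3 was the 1 member at that level and the 1 member whose groups did not overlap, which held for 22.7% of genes. It read 7.39 and 7.58 in controls and 6.92 and 7.0 in Tfap2c−/− ESCs, a difference of −0.52 (SE 0.19). Ccnd1 read 9.37 and 8.43 against 9.04 and 9.73, and Cdk6 read 7.84 and 6.63 against 7.19 and 8.28, and for both genes the groups overlapped. Their differences were 0.48 and 0.50, with intervals from −0.75 to 1.72 and from −0.61 to 1.60. No member passed a difference of 1.5, which 0.132% of genes did.

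The knockout effect was then compared between the cell types. No member passed this interaction test, beside 0.148% of genes, or 27. For Ccnd1 the effect in PGCLCs exceeded that in ESCs by 1.85 (SE 0.75; 95% interval 0.10 to 3.6), with an unadjusted p of 0.0406 and an adjusted p of 0.520 (limma). It was the 1 member above 1.5, beside 1.71% of genes. For Cdk6 the effects differed by 0.89 (SE 0.67) (95% interval −0.67 to 2.46). For Ccnd3, with −0.70 in PGCLCs and −0.52 in ESCs, the effects differed by −0.18 (SE 0.26; 95% interval −0.79 to 0.43).

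The step from ESCs to PGCLCs was also measured in the absence of Tfap2c. Here 1 of 10 members passed, Ccnd2, beside 2.32% of genes in both directions and 1.35% higher. Ccnd2 read 3.98 and 3.6 in Tfap2c−/− ESCs and 6.75 and 6.77 in Tfap2c−/− PGCLCs. The groups were far apart, with a difference of 2.97 (SE 0.42; adjusted p = 0.0185, limma), or 7.85-fold, and 6 of its 7 probe sets passed. It was the 1 member above 1.5, as were 2.18% of genes. Groups did not overlap for 7 members and 48% of genes.

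Ccnd1 read 9.04 and 9.73 in Tfap2c−/− ESCs and 8.37 and 8.66 in Tfap2c−/− PGCLCs. It was lower in both PGCLC arrays, by 0.87 on average (SE 0.53; adjusted p = 0.421, limma), where in controls the same step was −2.72. Ccnd3 differed by 0.73 (adjusted p = 0.0954) and Rbl1 by −0.63 (adjusted p = 0.0867, limma), in the directions of the controls. Rb1 differed by 0.86 (adjusted p = 0.163, limma), as in controls to 2 decimals, but its dim second probe set differed by −0.07. The call of Ccnd2 was lost without any 1 of the 4 Tfap2c−/− arrays (adjusted p from 0.0595 to 0.103), while its difference stayed between 2.78 and 3.16. Without Tfap2c−/− ESC array 1, Cdkn1b passed instead (1.21; adjusted p = 0.0429, limma), its Tfap2c−/− ESC arrays being 7.46 and 6.10. With all arrays it differed by 0.53, by −0.88 on its other probe set, and by −0.17 when both were averaged.

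Taking the 4 groups in order of mean level, Ccnd1 ran from control PGCLCs (6.18 ± 1.16, SD, n = 2) through Tfap2c−/− PGCLCs (8.51 ± 0.21) and control ESCs (8.90 ± 0.67) to Tfap2c−/− ESCs (9.39 ± 0.49). Neighbours among the upper 3 groups overlapped. Ccnd3 ran from Tfap2c−/− ESCs (6.96 ± 0.06) through control ESCs (7.48 ± 0.13) and Tfap2c−/− PGCLCs (7.69 ± 0.19) to control PGCLCs (8.39 ± 0.29), and the middle pair overlapped. For Cdk6 the control PGCLCs (5.92 ± 0.03) were lowest, and the other groups, with means of 7.24 to 7.73, overlapped.

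The genes whose 8 values ran most like those of the members were found by the root mean square difference of log2 values after each gene was centred on its mean. For Ccnd1 they were Celf4 (0.27), Lama1 (0.31) and Slc6a8 (0.32), an RNA-binding protein, a laminin chain and the creatine transporter. For Cdk6 they were Dop1b (0.25), Sall3 (0.25) and D16Ertd472e (0.26). For Ccnd2 they were Phlda1 (0.29), Amot (0.35) and Isl1 (0.35), and for Ccnd3 they were Bcas3 (0.11), Arrb2 (0.15) and Nrsn1 (0.16). The small values for Ccnd3 go with its small variation, 0.53 around its own mean against 1.33 for Ccnd1.

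Other genes of the G1 to S transition were read from a list of 26, all measured. Between control ESCs and control PGCLCs 3 rose and 3 fell. Cdkn1c, the inhibitor p57, rose by 2.66 (adjusted p = 0.0341). The inhibitor genes Cdkn2a (p16 and ARF) and Cdkn1a (p21) fell by 1.64 (adjusted p = 0.0127) and by 1.43 (adjusted p = 0.0206, limma). Without control PGCLC array 2 none of the 26 passed. Without control ESC array 1 only Cdkn2a did and without control ESC array 2 only Skp2, the F-box protein that targets p27. Without control PGCLC array 1, Cdkn1a and Skp2 passed. In PGCLCs none of the 26 passed between genotypes, and the largest difference was that of Rbl2, the third pocket protein (p130), at 1.20 (SE 0.27; adjusted p = 0.0601, limma). All group means of Rbl2 were under log2 5, with control PGCLCs at 3.58 and 3.57. Rbl2 passed without Tfap2c−/− PGCLC array 1, Cdkn1a without control PGCLC array 1, and Cdk2 without either Tfap2c−/− ESC array. In ESCs and in the interaction none passed. Between the Tfap2c−/− cell types 1 passed, Tfdp2, an E2F partner, which rose by 0.99 (adjusted p = 0.0335, limma). This call was lost with any 1 of the 8 arrays left out.

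Of 18 E2F target genes of DNA synthesis, 17 were measured. None passed between genotypes in PGCLCs or ESCs, and the largest difference in PGCLCs was 0.28, that of Pola1. Between control cell types Mcm7, a subunit of the replicative helicase, rose by 0.58 (adjusted p = 0.0039), and Pola1, the catalytic subunit of DNA polymerase alpha, fell by 0.92 (adjusted p = 0.0251). Tk1, thymidine kinase, fell by 0.64 (adjusted p = 0.0427, limma). With any 1 of the 4 control arrays left out Mcm7 alone passed, and without either Tfap2c−/− PGCLC array Tk1 did not. Of 14 mitosis genes 13 were measured and none passed in any of the 5 comparisons with all arrays fitted. The largest difference in PGCLCs between genotypes was −0.63, that of Cenpa (adjusted p = 0.0878), and between control cell types 0.73, that of Mki67 (adjusted p = 0.0537, limma). Mki67 passed without either Tfap2c−/− ESC array.

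Of 18 genes that feed into D-type cyclins or their turnover, 17 were measured, and 3 passed between genotypes in PGCLCs. Urgcp, which the study lists as a regulator of Ccnd1 and chose on these arrays, read 8.30 and 8.42 in control PGCLCs against 5.15 and 5.23 without Tfap2c. The groups were far apart, and it fell by 3.17 (SE 0.32; adjusted p = 0.0044, limma). This call remained without any 1 of the 8 arrays. Tcf7l2 and Tcf7l1, DNA-binding partners of beta-catenin, rose by 2.56 (adjusted p = 0.0391) and 1.20 (adjusted p = 0.0334, limma). Both calls were lost without any 1 of the 4 PGCLC arrays or the 2 control ESC arrays.

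Between control cell types 4 of the 17 rose and none fell. Urgcp rose by 2.65 (adjusted p = 0.0045), Junb, an AP-1 subunit, by 1.43 (adjusted p = 0.0040), and Ddb1, an adaptor of cullin ubiquitin ligases, by 0.90 (adjusted p = 0.0040, limma). The fourth was Fbxo31, which passed only with all arrays or without a Tfap2c−/− ESC array. In Tfap2c−/− cells Junb (1.72; adjusted p = 0.0057) and Tcf7l1 (1.20; adjusted p = 0.0406, limma) were higher in PGCLCs than in ESCs. Junb passed with any 1 of the 8 arrays left out, and Tcf7l1 passed in none of these fits.

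**Figure D4:**
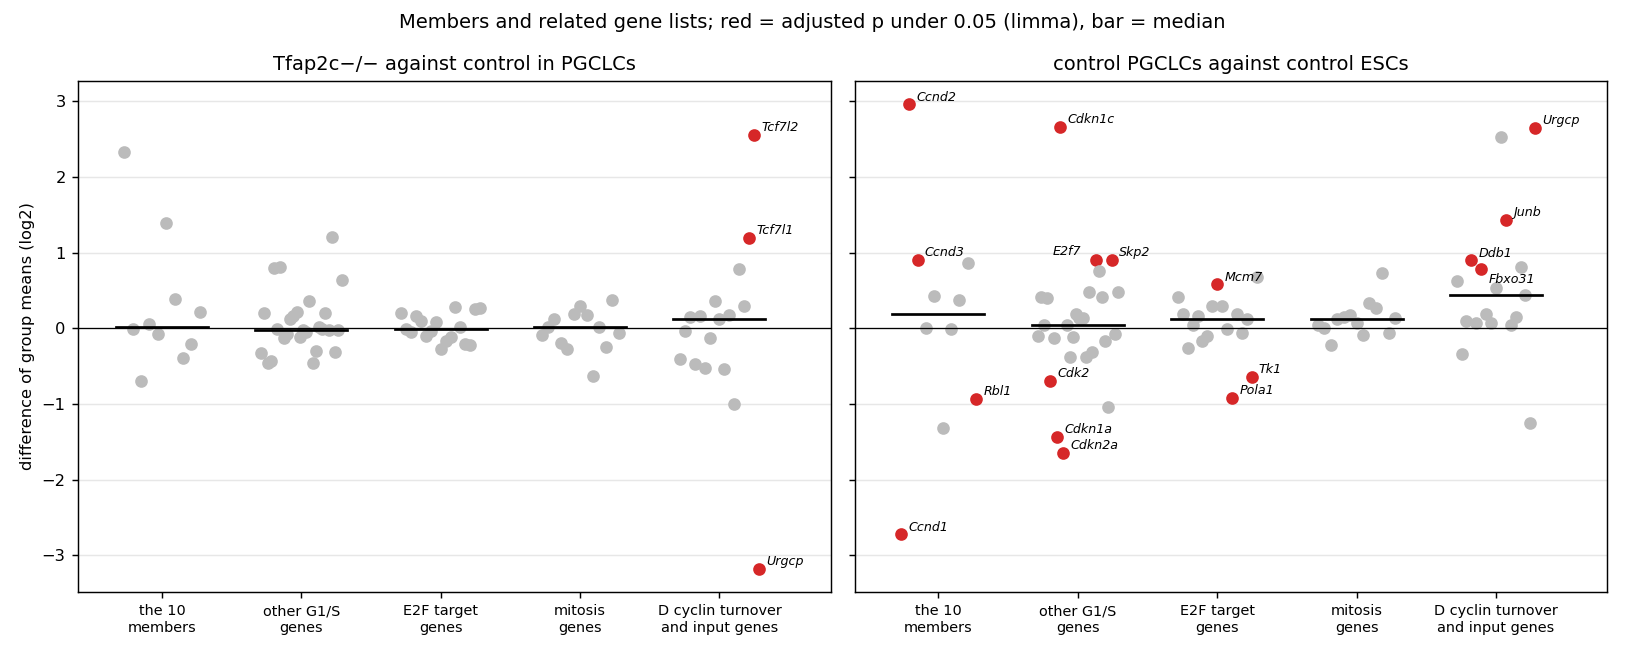
Difference of group means on the log2 scale (vertical axis) for the 10 members and the measured genes of 4 lists, with 1 point a gene, medians as bars and genes past limma at an adjusted p under 0.05 in red. Between genotypes in PGCLCs (left) Urgcp, Tcf7l1 and Tcf7l2 passed, and between control cell types (right) 4 members and genes of every list but the mitosis genes did.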

How the data were processed

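RNA of ESCs and sorted PGCLCs was hybridised to Affymetrix whole-genome mouse arrays. The deposited values are log2 expression levels that the authors normalized across arrays. For this step the methods give RMA, whereas GCRMA (no version) stands in the submitters' processing notes, so which was used is unsettled. Array medians were 3.47 to 3.55. The number of arrays limits the precision.

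Of 45101 probe sets, 64 are controls, 34945 name 1 gene in the platform annotation, 932 name several and 9160 are not listed. A gene was represented by its probe set with the highest mean. The 4 groups were fitted together with limma 3.58.1 in R 4.3.3 (lmFit, eBayes with trend; 4 residual and 3.67 prior degrees of freedom), two-sided, with Benjamini-Hochberg adjustment over 18193 genes and a threshold of 0.05. Probe sets were also fitted singly. Named are the members and, from each list, up to 3 genes past limma with the largest change in a comparison, or the 1 with the largest difference where none passed. Beside these, Skp2, Fbxo31, Cdk2 and Rbl2 were named after their values were seen, where a small count rested on them. The members and lists were chosen with earlier results of these data known. Ccne2 stands in 2 lists. Ccnb1, Tcf7, Nanos3 and T were not analysed here, and 1 listed gene is not reported here. Alternatives varied the probe set of a gene, dim genes, normalization, variance moderation, arrays fitted, block and rule for a call, and left out each array in turn. Leaving out arrays for the lists was chosen after seeing the data. Tested on simulated data for Tfap2c−/− against control PGCLCs, the fit recovered 22, 38, 45 and 49 of 50 genes changed by 1, 1.5, 2 and 3 on the log2 scale. It made 9 false calls among the genes given no change. A simulated gene had the same spread in every group. Real spreads differed, as for Ccnd1, whose arrays lay 1.64 apart in control and 0.29 in Tfap2c−/− PGCLCs. Sequences were searched in Python 3.11.15 with pandas 2.3.3, and plots drawn with Matplotlib 3.10.9.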

Additional observations from a re-analysis of the deposited data

How the results depend on the processing

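The number of members passing limma between control PGCLCs and control ESCs, 4 as reported, was 2 when all probe sets of each gene were averaged (Ccnd1 and Ccnd2), 2 with only the arrays compared (Ccnd2 and Rbl1), 2 by a difference above 1.5 (Ccnd1 and Ccnd2), and 0 to 4 when each array was left out. Between Tfap2c−/− PGCLCs and Tfap2c−/− ESCs it was 1, and 0 to 1 with an array left out. Between genotypes in PGCLCs it was 0, with 1 (Ccnd1) when genes under log2 5 were left out or by a difference above 1.5, and 0 to 1 with an array left out. For the interaction it was 0, and 1 (Ccnd1) by a difference above 1.5. The cause was not tested. Equal array medians, quantile normalization, eBayes without trend, all probe sets and leaving out cross-hybridizing probe sets left these counts as they were.

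Over all genes, 562 passed between genotypes in PGCLCs, 187 with only the PGCLC arrays and 87 without control PGCLC array 2. For control PGCLCs against control ESCs the count was 1522, with 325 without control ESC array 1. For Tfap2c−/− PGCLCs against Tfap2c−/− ESCs it was 422, and 56 with only the arrays compared. For the interaction it was 27, with 17 over all probe sets and 1 without control ESC array 1.

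With the replicate number as a block the member counts were again 0, 0, 0, 4 and 1, and Ccnd1 between genotypes in PGCLCs had an adjusted p of 0.0653. Same-numbered arrays deviated together in PGCLCs (r = 0.39) but not in ESCs (r = −0.33), across genes, so the numbers were not taken as pairs.

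Probe sets under log2 5, among them Ccnd2 in ESCs, Cdkn2c and the second Cdkn1b probe set, lie where differences are compressed.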
